A study of Mus musculus with 5 samples.

Results

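The polyol pathway turns glucose into fructose by way of sorbitol, and 3 of its genes are described here, chosen by symbol from the 23420 genes listed in the deposited table: Akr1b3, Sord and Khk. Sord was picked because its values stood far apart between the groups in this same comparison, so its difference is described and not tested. Akr1b3 and Khk were picked for their place before and after it in the pathway. Of the 3 genes, 2 passed the filter on low values (Sord and Khk).

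The libraries came from live forebrain cells of mouse pups at postnatal day 8, sorted for CD11b, a surface protein of microglia (the resident macrophages of the brain) and of blood myeloid cells. The group labelled knockout held 3 libraries from Cx3cr1CreERT2/+:Stat3fl/fl pups, which carry a tamoxifen-inducible Cre at Cx3cr1 and floxed Stat3, with tamoxifen given daily from postnatal day 1 to 3. The control group held 2 libraries from Stat3fl/fl littermates without Cre, and the labels do not say whether these received tamoxifen. Floxed Stat3 was shared by both groups, whereas Cre and 1 disrupted copy of Cx3cr1 came with the knockout genotype alone. Per the labels, each library pooled 2 to 4 pups, male and female.

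As background, aldose reductase (Akr1b3) reduces glucose to sorbitol with NADPH, and sorbitol dehydrogenase (Sord) oxidizes sorbitol to fructose with NAD. Ketohexokinase (Khk) then phosphorylates fructose, which commits it to breakdown. The pathway is known for its flux at high glucose, and sorbitol also serves as an osmolyte. The question was whether the difference of Sord was shared by the enzymes before and after it.

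It could not be shown for the step before, and was not seen in the step after. Akr1b3 was listed at exactly 0 in all 5 libraries, which leaves no difference to read. Khk varied within both groups, and the groups overlapped. Values are on a log2 scale and centred gene by gene, so libraries can be compared for a gene but genes cannot be ranked by level. On this scale the table gives a gene without reads a recognisable value that differs slightly between libraries, called the 0-read value here. A gene was tested unless it lay at that value in 4 or 5 libraries, which left 9401 genes.

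Several facts of the whole series bear on these genes. Depth per library is unknown, since the table holds no counts. Among tested genes, at most 7816 lay above the 0-read value in control replicate 1 and at most 8167 in control replicate 2, while the bound was 8399 to 8437 in the knockout-labelled libraries. These bounds rest on genes at the 0-read value in 3 libraries at once, so they do not order the libraries by genes detected. Stat3, the targeted gene, stood at 0.96, 0.07 and 0.24 in the knockout-labelled libraries and at 0.08 and 0.45 in the controls. It was not lower there and does not bear out the labels. The table gives 1 value per gene, so whether the floxed part of Stat3 was lost cannot be read from it. Cx3cr1, the gene that carries Cre, stood at 3.36, 3.34 and 3.00 against 4.32 and 3.95, below both controls in each knockout-labelled library. All 18 microglia markers looked at were tested, 9 of them higher and 9 lower, with a mean over the list between 2.72 and 2.96 in the knockout-labelled libraries and between 2.75 and 2.98 in the controls. In the limma fit over all genes, 0 of 9401 passed an adjusted p of 0.05 (0%), members included, and 724 had an unadjusted p under 0.05 (7.7%).

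Where the members lie, and the sequence before their start sites, is shown first because the targeted gene encodes a transcription factor that binds DNA. Sord spans positions 122234749 to 122265340 on the plus strand of chromosome 2 (GRCm38, GENCODE vM21). Khk spans 30921431 to 30931248 on the plus strand of chromosome 5. Akr1b3 spans 34302434 to 34317478 on the minus strand of chromosome 6. None of them shares a chromosome with Stat3 (chromosome 11) or Cx3cr1 (chromosome 9). The 250 bases before the RefSeq start (GRCm38.p6) were at hand for Sord, at chr2:122234589-122234838, and for Khk, at chr5:30921309-30921558, and not for Akr1b3. In GENCODE both genes start earlier, so the last 90 bases of the Sord window and the last 128 of the Khk window lie inside the gene spans given above. The part before the GENCODE start is printed, chr2:122234589-122234748 for Sord and chr5:30921309-30921430 for Khk, with CG pairs in capitals.

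Sord: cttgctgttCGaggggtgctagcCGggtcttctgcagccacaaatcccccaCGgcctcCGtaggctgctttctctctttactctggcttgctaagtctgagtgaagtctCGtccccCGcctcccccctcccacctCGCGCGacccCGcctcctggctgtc
Khk: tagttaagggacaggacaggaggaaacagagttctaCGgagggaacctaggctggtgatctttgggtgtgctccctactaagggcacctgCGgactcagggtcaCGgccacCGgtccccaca

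Both windows of 250 bases were rich in CpG, with 19 CG pairs in Sord and 18 in Khk against a median of 6 over all windows, and 10 and 4 of these lay in the printed parts. The GC box GGGCGG, bound by Sp family factors, was found 2 times in the Sord window and 1 time in that of Khk, in each case inside the GENCODE gene span, and 32.7% of 32851 promoter windows of this length held at least 1 on either strand. The STAT dimer motif TTCNNNGAA, which reads the same on both strands and does not overlap with the GC box, was found 0 times in each, and 7.02% of all windows held it. This says only that these letters are not in these windows.

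Sord, the enzyme that makes fructose from sorbitol, was above the 0-read value in both controls and at it in every knockout-labelled library. Its value was 1.73 in control replicate 1 and 1.74 in control replicate 2. In the knockout-labelled libraries it stood at -0.27, -0.27 and -0.30, which are its 0-read values there. The groups did not overlap, and the controls differed from each other by 0.017. Of all tested genes, 7.06% had every knockout-labelled library below both controls, a share given as background, since Sord was chosen on this contrast. The difference of the deposited values was -2.02 on the log2 scale, and leaving out any 1 library kept it between -2.03 and -2.01. It is not a fold change of reads, because 1 group is at the 0-read value and no counts are held. In sorted cells measured in bulk, fewer cells with Sord RNA and less Sord RNA per cell cannot be told apart.

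The arrangement of Sord, with all 3 knockout-labelled libraries at the 0-read value and both controls above it, was found for 56 genes (0.596% of those tested). Pih1d2 and Taf13 are marginal members of these 56. Their control replicate 2, at -0.08 in each, was counted as above its 0-read value but did not lie above the knockout-labelled values. Within these 56 the differences ran from -0.29 to -2.02 with a median of -0.90, and Sord had the largest. Over all tested genes Sord ranked second among the lower genes by size. Genes with this arrangement passed the filter only through the controls and had to be lower. The ranks of Sord therefore describe it and support nothing. None of the other tested genes in the pathway lists described below (0 of 60) had this arrangement. That is near the 0.596% of all tested genes and does not set Sord apart from the lists.

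**Figure D1:**
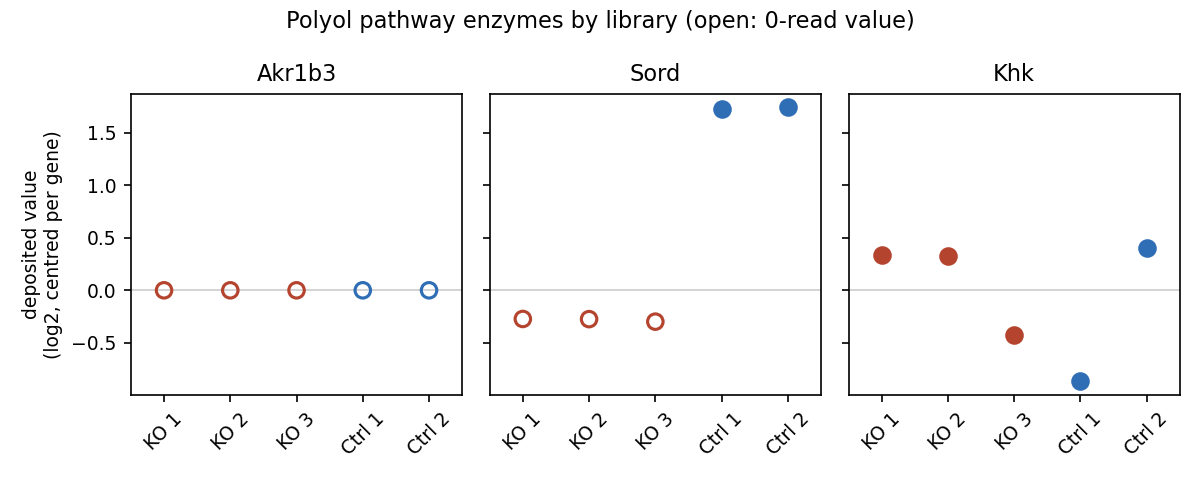
Deposited log2 value, centred per gene, of Akr1b3, Sord and Khk in each of the 3 knockout-labelled libraries (KO, red) and the 2 controls (Ctrl, blue), with open circles at the 0-read value. Akr1b3 is listed at 0 in all 5 libraries, Sord is high in both controls alone, and the Khk groups overlap.

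**Figure D2:**
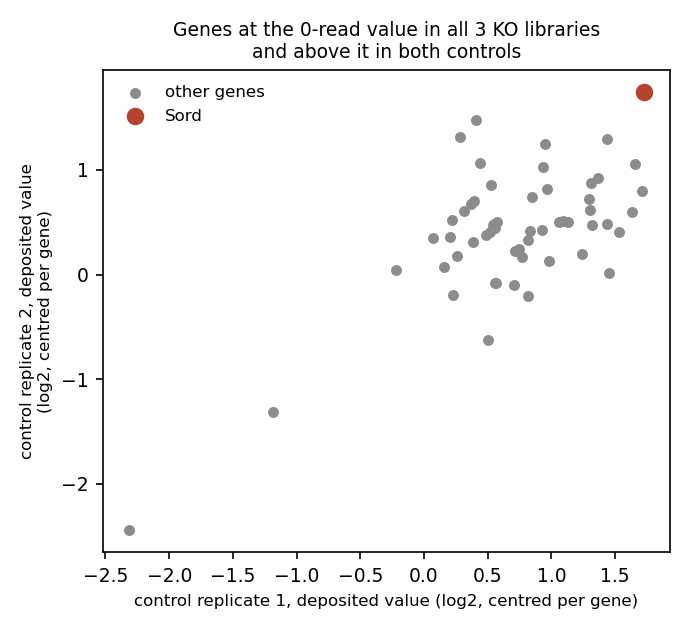
Deposited log2 values in control replicate 1 (horizontal) and control replicate 2 (vertical) for the 56 genes at the 0-read value in all 3 knockout-labelled libraries and above it in both controls. Each point is 1 gene, and Sord (red) lies at 1.73 and 1.74, at the upper right.

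Gene-wide profiles nearest to that of Sord were searched by the root mean square difference over the 5 libraries, each gene centred on its own mean. Among 8542 tested genes with clone names and sex-linked genes left out, the nearest were Acy1, Eapp, Gadd45g, Casc3 and Atf7, at 0.26, 0.28, 0.32, 0.37 and 0.38 log2 units. Acy1, an aminoacylase, had control values of 1.93 and 1.89, and stood at -0.38, 0.31 and 0.23 in the knockout-labelled libraries. Of these 5 genes, Gadd45g, a stress-response gene, was also found at the 0-read value in all 3 knockout-labelled libraries. The likeness was computed on the contrast that chose Sord and describes it without adding support.

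Akr1b3, the aldose reductase that opens the pathway, was listed at exactly 0 in each of the 5 libraries. So were 6974 of the 23420 genes, and a further 4482 lay at their 0-read value in all 5. The latter include genes that nearly every cell uses: Ppia, Pgk1 and Eno1 were at the 0-read value in all 5 libraries, 3 of 22 such genes looked at after values had been seen. These 3 were not listed at exactly 0, so they are not of the same kind as Akr1b3. With no counts held, the value of Akr1b3 is given as listed at 0 and not as absence of its RNA. Its difference between the groups cannot be computed.

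Much of the Akr1b3 transcript is repeated elsewhere among annotated genes. The reads were 40 bp long, so every 40-base window of the longest protein-coding transcript of each gene was compared with the transcripts of all other genes in GENCODE vM21, on both strands. For Akr1b3, 1196 of 1348 windows (88.7%) also occurred in another annotated gene. The partners numbered 11, most of them processed pseudogenes. The longest match was with Gm38056, a transcript on chromosome 1 that overlaps the pseudogene Gm6644, at 85.5% of windows. Gm6644 itself shared 58.8%, Gm6736 on chromosome 12 shared 52.6% and Gm12138 on chromosome 11 shared 45.4%. Gm6644 was in the deposited table and was listed at 0 in all libraries as well. An antisense gene, Gm14546, also overlaps Akr1b3, and the library kit did not mark strand.

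Sord had 3 partner genes and Khk none. For Sord, 778 of 2313 windows (33.6%) also occurred in Gm6652, a processed pseudogene on chromosome 1. None of the 3 partners of Sord is listed by these names in the deposited table, so no values could be read for them. The pseudogenes Gm6923 and Gm18159 held 6 and 3 of these same windows. For Khk, 0 of 1544 windows were shared. Among 19321 protein-coding genes matched to the table, 44.2% of those with no shared window lay at the 0-read value in all 5 libraries. That share was 66.4% for genes with over 75% and up to 90% of windows shared, where Akr1b3 falls, and 82.5% above 90%. Among the genes nearly every cell uses, Rps18 (88.9% shared), Gapdh (83.3%) and Eef1a1 (68.9%) were tested. Eno1 (74.8%), Pgk1 (68.1%) and Ppia (42.2%) were at the 0-read value in all 5 libraries. How reads with several matches were counted is not given in the sources used here, and the part of shared sequence in the Akr1b3 or Sord values was not tested.

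**Figure D3:**
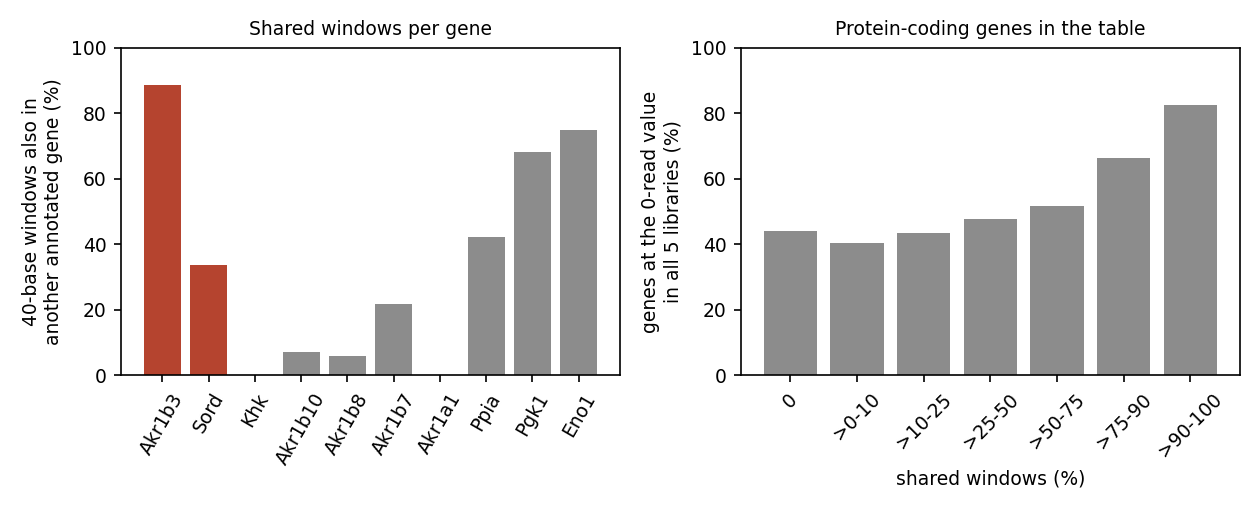
Left, percent of 40-base transcript windows that also occur in another annotated gene, for the 3 members (red) and 7 other genes (grey); right, percent of protein-coding genes at the 0-read value in all 5 libraries, by their percent of shared windows. Akr1b3 stands at 88.7%, Sord at 33.6% and Khk at 0%, and the bars on the right reach 82.5% in the last class. Rps18, with 88.9% shared and tested, is not drawn.

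Khk, which phosphorylates fructose, did not pass the test and did not follow Sord. It stood at 0.33, 0.32 and -0.42 in the knockout-labelled libraries and at -0.87 and 0.41 in the controls. The lowest and the highest of the 5 values were both controls, so the groups overlapped fully. It averaged 0.08 ± 0.43 (SD, n = 3) in the first group and -0.23 ± 0.90 (SD, n = 2) in the second. The log2 difference was 0.31 with SE 0.49 and a 95% interval from -0.80 to 1.42 (limma, adjusted p = 0.895). It turned to -0.33 without control replicate 1 and was 0.94 without control replicate 2. The interval from -0.80 to 1.42 holds changes in either direction and does not hold the Sord difference of -2.02. The 0-read value of Khk is unknown, so whether Khk could fall that far on this scale is not known. No conclusion on a shared loss is drawn from the interval. The table gives 1 value per gene, so the splice forms of Khk cannot be told apart.

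Khk in knockout replicates 1 and 2 differed by 0.0078, and the gene nearest to it in profile, Phlda3, differed from it by a root mean square of 0.0047 over the 5 libraries. The next 4, Tatdn2, Stard5, Hsp90aa1 and Tpd52, lay at 0.072 to 0.079. Phlda3 stood at 0.26, 0.25 and -0.51 in the knockout-labelled libraries and at -0.95 and 0.33 in the controls. Whether Khk rests on few reads was not tested, since no counts are held. If it does, its difference between the groups may be understated on this scale.

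Of the 10 protein-coding genes closest to Sord on the chromosome, 9 were looked at and 2 were tested, and neither passed. B2m, the light chain of class I histocompatibility molecules, lies at positions 122147686 to 122153083 of chromosome 2. It stood at 2.99, 2.76 and 2.93 against 1.84 and 1.73, with no overlap between the groups (difference 1.11 with SE 0.36, limma adjusted p = 0.615). Spg11, which is tied to lysosome recycling, stood at 0.38, 0.13 and -0.16 against 0.57 and -1.68, with overlapping groups (difference 0.67 with SE 0.62). Without control replicate 2 that difference was -0.45, so its direction rests on 1 library. The dual oxidase genes and their maturation factors on the other side, Duox2, Duoxa2 and Duoxa1, were listed at 0 in all libraries, and Duox1 lay at the 0-read value in 4. Around Khk 9 of 10 neighbours were tested, 5 higher and 4 lower, and around Akr1b3 5 of 10, with 3 higher and 2 lower.

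**Figure D4:**
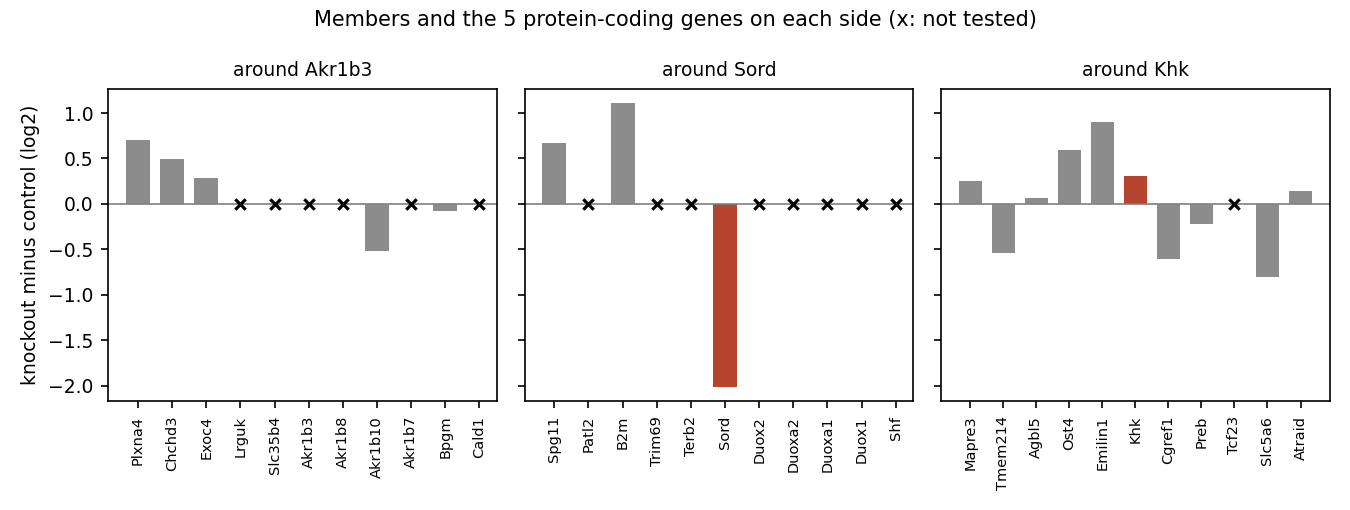
Log2 difference, knockout minus control, of each member (red) and the 5 protein-coding genes on each side in chromosome order (grey bars), with crosses for genes that were not tested. Sord at -2.02 has B2m at 1.11 and Spg11 at 0.67 on one side, the latter -0.45 without control replicate 2, and untested genes on the other.

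Genes around the pathway were taken from 6 lists chosen by function: 107 genes apart from the members, of which 102 were in the table and 60 were tested. At the adjusted threshold 0 passed (limma), and 35 were higher and 25 lower, where 5641 of all 9401 tested genes were higher and 3760 lower. The filter itself sets some directions: 7 of the 60 (11.7%) were at the 0-read value in both controls and 1 knockout-labelled library, so they were tested only through knockout-labelled libraries and had to be higher, as were 10.1% of all tested genes. A gene at the 0-read value in both controls alone also had to be higher but cannot be recognised, so both shares are lower bounds. At an unadjusted p under 0.05 there were 4 higher and 1 lower, where 5.6% and 2.11% of all tested genes lay. Cryz and Hagh are among these 4, and both controls of each may be at the 0-read value. Every knockout-labelled library was below both controls for 5 of the 60 (8.33%, against 7.06% of all tested genes) and above both for 14 (23.3%, against 17.2%). The median difference over all tested genes was 0.14, and it was -0.11 with libraries centred on their medians. List medians are therefore given relative to it.

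The other aldo-keto and carbonyl reductases, which reduce sugars and aldehydes beside Akr1b3, numbered 16 in the table, of which 7 were at the 0-read value in all libraries, 4 were at it in 4, and 5 were tested. Of these 2 were higher and 3 lower, and none passed. Over all genes in the table, 48.9% were at the 0-read value in all libraries. The list median was -0.24 relative to all genes, and 0.33 without control replicate 2. Akr1b10, the closest tested relative of Akr1b3, stood at 0.22, 0.21 and 2.04 in the knockout-labelled libraries and at 1.82 and 0.86 in the controls. Knockout replicate 3 was the highest of the 5, and the groups overlapped. Akr1b7 was listed at 0 and Akr1b8 lay at its 0-read value throughout. Dcxr, which reduces xylulose in the neighbouring uronate route, stood at 1.32, 0.73 and 0.22 against 1.32 and 1.17, with a difference of -0.49 and SE 0.43. Cbr1, a carbonyl reductase, differed by 0.42 with SE 0.38.

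Among relatives of Sord in the medium-chain dehydrogenase family, 9 of 13 were tested and none passed. Higher values were found for 8 and a lower one for 1, but Cryzl1, Mecr and Zadh2 (3 of the 8) are among the genes whose direction the filter fixes, so the count and the median describe and support nothing. With Sord included the list median was 0.35 relative to all genes, but -0.02 without control replicate 1. Cryz, a quinone reductase, stood at -0.22, 0.65 and -0.70 against -1.12 and -1.21, without overlap (difference 1.07 with SE 0.46, limma adjusted p = 0.645). Both controls of Cryz may be at its 0-read value, which cannot be recognised in 2 libraries, so its direction may be fixed too. Mecr, of mitochondrial fatty acid synthesis, differed by 0.65 with SE 0.45. Vat1l was the lower one, at -0.45 with SE 0.49.

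Among the genes that use fructose or phosphorylate hexoses, 14 of 25 were tested including Khk, 9 higher and 5 lower, and their median was 0.04 relative to all genes. That median was below 0 without control replicate 1 (-0.04), control replicate 2 (-0.02), knockout replicate 1 (-0.08) or knockout replicate 2 (-0.08). Dak, which phosphorylates the glyceraldehyde that fructose breakdown yields, stood at 1.39, 1.92 and 0.75 against 1.77 and 1.02, with overlapping groups. Hexokinase Hk2 stood at 1.85, 2.46 and 2.02 against 1.97 and 1.89. The 3 with the smallest p set the level of a fructose bisphosphate that activates glycolysis but is not an intermediate of it. Pfkfb2 differed by -0.89 with SE 0.45, Pfkfb3 by 0.77 with SE 0.43 and Pfkfb4 by -0.70 with SE 0.43. None of them passed.

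Hexose transporters included the 1 gene of the lists besides Sord that was lower at an unadjusted p under 0.05. Slc2a8, an intracellular glucose and fructose transporter, stood at 0.25, -0.15 and -0.24 in the knockout-labelled libraries and at 0.97 and 1.11 in the controls. All 3 lay below both controls, with a difference of -1.09, SE 0.37 and a limma adjusted p of 0.615. Slc2a5, the fructose transporter typical of microglia, stood at 1.66, 1.65 and 1.04 against 1.66 and 1.02 and did not separate the groups. Slc2a12, whose direction the filter fixes, differed by 0.56 with SE 0.43. Slc5a2, a sodium-coupled glucose transporter, differed by -0.35 with SE 0.36. Of 13 transporters 7 were tested, 3 higher and 4 lower. Their median was -0.32 relative to all genes, and 0.08 without control replicate 1.

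In the osmolyte response, which controls Akr1b3 in other tissues, 4 of 10 genes were tested, 2 higher and 2 lower. Nfat5, the factor that drives that response, stood at 0.20, -0.67 and 0.06 against 0.94 and 0.22, with a difference of -0.72 and SE 0.44. The taurine transporter Slc6a6 stood at 0.92, 0.91 and 1.21 against 0.50 and 0.45, with a difference of 0.54 and SE 0.36. Pla2g15, a lysosomal phospholipase, differed by 0.45 with SE 0.48. The list median was 0.01 relative to all genes, and -0.29 without control replicate 2.

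Genes that supply NADPH, which aldose reductase consumes, or keep glutathione reduced were tested in 22 of 27 cases, 12 higher and 10 lower. Their median was 0.06 relative to all genes, and -0.17 without control replicate 2. Tkt, a transketolase of the pentose phosphate pathway, stood at 1.45, 1.17 and 1.00 against -0.25 and -0.09, a difference of 1.38 with SE 0.37 (limma adjusted p = 0.615). Nadk, the kinase that makes NADP, stood at 1.86, 0.99 and 0.99 against -0.32 and 0.23, a difference of 1.32 with SE 0.43. Hagh, a glyoxalase, differed by 0.90 with SE 0.38. In these 3 genes the groups did not overlap. For Hagh the filter may fix this, since its controls, at -0.77 and -0.83, may both be at the 0-read value. G6pdx, which makes the first NADPH of that pathway, stood at 0.75, -0.42 and 0.41 against 0.92 and 0.64.

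**Figure D5:**
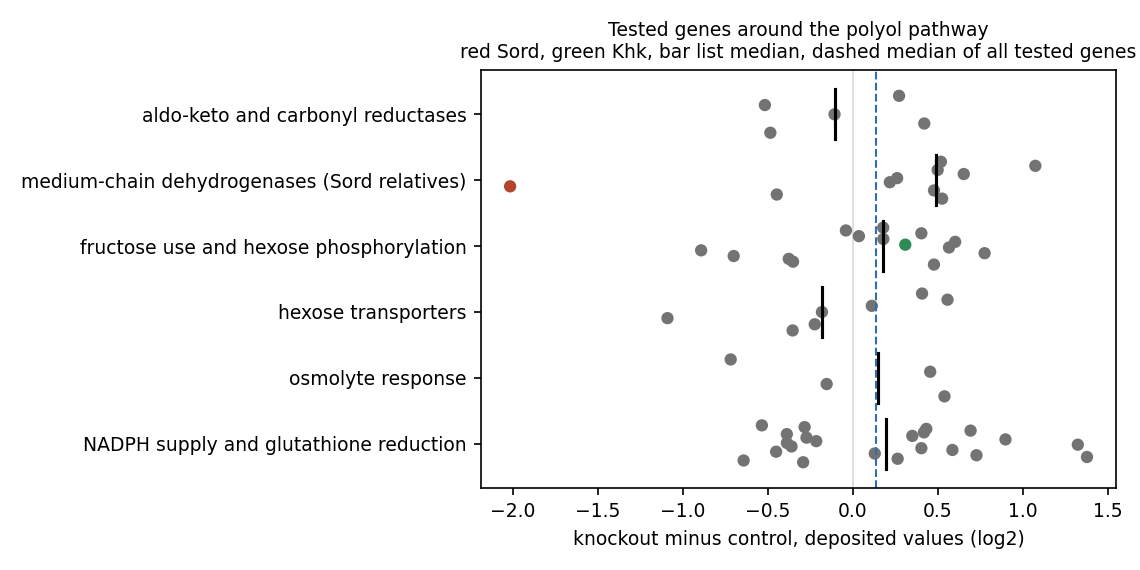
Log2 difference, knockout minus control, of each tested gene in the 6 pathway lists, with Sord in red, Khk in green, list medians as black bars and the median of all tested genes, 0.14, as a dashed line. Sord at -2.02 lies apart, and the next lowest is Slc2a8 at -1.09.

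No marker of other cell types passed the test (limma), and the values beside Sord were as follows. Of 9 tested monocyte markers 8 were higher, with list means from 0.52 to 1.17 against -0.20 and 0.24, and Ly6c2 was at the 0-read value throughout. Of 8 tested neutrophil markers 7 were higher, with list means from 0.72 to 1.30 against 0.12 and 0.22, and Elane was at that value throughout. Plac8 of the first list and S100a8, Mmp8 and Mmp9 of the second had to be higher by the filter, so these counts and means support nothing. Ccr2, Treml4 and Itgal of the first list and S100a9 of the second may be fixed likewise. Both of their controls may be at the 0-read value, which cannot be recognised in 2 libraries. S100a9, a calcium-binding protein of neutrophils named after its values were seen, stood at 2.29, 1.73 and 2.31 against -0.33 and -0.37 (limma adjusted p = 0.565).

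For cells that should be absent from the sort, 5 of 11 neuron markers, 4 of 10 oligodendrocyte lineage markers, 2 of 10 astrocyte markers and 5 of 9 endothelial markers were at the 0-read value in all 5 libraries, against 48.9% of all genes in the table. List means of tested neuron markers ran from -2.03 to -1.51 in the knockout-labelled libraries and from -2.12 to -1.84 in the controls. For astrocyte markers they ran from -1.33 to -1.06 and from -1.40 to -1.06. For the 3 tested oligodendrocyte lineage markers they ran from -0.82 to 0.30 and from -0.91 to -0.74. Cnp, a myelin enzyme on that list also named after its values were seen, stood at -0.26, 0.43 and 0.83 against -0.63 and -1.22, without overlap (difference 1.26 with SE 0.45). For the 3 tested endothelial markers they ran from -0.00 to 0.27 and from -0.08 to 0.55. The part of any of these cells in the Sord values was not tested.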

How the data were processed

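PolyA RNA of 5 libraries was sequenced with 40 bp reads and aligned to GRCm38/mm10 with TopHat 2.0.13, per the labels' protocols. The submitters' processing notes also name DESeq2 without role or version. For the read counter and the annotation, nothing is given in the sources used here. The authors deposited 1 value per gene and library, taken from the values to be log2 expression centred per gene on a value outside the table, as a regularized log gives. Such a transform shrinks differences of genes with few reads. No sample column was left unused.

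The 0-read value was recognised from its fixed pattern across libraries (tolerance 2% of the span, span at most 0.1157). Genes at it in 4 or 5 libraries and 27 date-like names were left out. A gene at it in 1 or 2 libraries cannot be recognised. The rest were fitted with limma 3.58.1 in R 4.3.3 (~ group, Benjamini-Hochberg, threshold 0.05). The limma fit and the 0-read rule were tested on simulated data. Tables and plots were made in Python 3.11.15 with numpy 2.4.6, pandas 2.3.3 and matplotlib 3.10.9.

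Groups and replicate numbers came from sample titles. Replicates are separate pools of pups. Same-numbered libraries did not deviate together (r = 0.0023 and -0.067 across genes), so the numbers were not taken as pairs. Named genes are the members, Stat3 and Cx3cr1, the 3 genes per pathway list with the smallest p, 5 neighbours on each side, and the 5 nearest profiles per member. Others, such as Akr1b10, Slc2a5 or G6pdx, were chosen for their role after their values were seen, as were the genes every cell uses. Members and lists were chosen with earlier results of these data known. Alternatives were no filter, median centring, quantile normalization, trend and robust variance, a replicate block, and leaving out each library. One pathway gene is not reported here.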

Additional observations from a re-analysis of the deposited data

How the results depend on the processing

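No gene passed in the limma fit, nor with median centring, quantile normalization, trend and robust variance, the replicate block or any 1 library left out (0 genes each, and 390 to 1129 at an unadjusted p under 0.05). Without the filter on low values 1 gene passed among 16423, and it was Sord, the 1 pathway gene to do so (adjusted p = 0.00853, the lowest over its alternatives, whose highest was 0.888). Its difference was the same -2.02 there, while limma gave it a smaller spread. Since Sord was chosen on this contrast, that call supports nothing. The Sord difference was -2.26 with libraries centred on their medians and -2.06 with quantile normalization. Leaving out 1 library kept it between -2.03 and -2.01. The Khk difference ranged from -0.33 to 0.94 when 1 library was left out, and the lower end, without control replicate 1, reversed its direction. With the replicate block the Khk difference was 0.56, against -2.01 for Sord. Under that block 390 genes had an unadjusted p under 0.05, against 724 without it. Replicate 3 exists in the knockout group alone, so the block takes it out of the comparison. Its differences are therefore the same as those without knockout replicate 3. Akr1b3 has no value under any of these settings, as genes with 1 value in all libraries cannot be fitted. With 2 controls and unknown depth, the precision of each difference is low, and an upper limit for a gene at the 0-read value cannot be given.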
